A study of Mus musculus with 20 samples.

Results

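Gm42031, Gm30211 and Gm34093 are uncharacterised long non-coding RNAs (lncRNAs), and they are 3 of the 13798 genes with values in follicular T cells from spleens of WT and 564Igi bone marrow chimeras. The 3 genes were chosen because their levels had been higher in the autoimmune 564Igi chimeras in these same cells. Their values by condition are therefore a description and carry no test. The labels give the strain of all mice as C57BL/6, and the methods of the study list C57BL/6J mice, B6.SJL mice, which carry CD45.1, and 564Igi mice on a C57BL/6 background. Recipients were irradiated as adults and reconstituted with congenic marrow. WT chimeras received WT marrow and were immunized with NP-OVA, a haptenated foreign protein, in alum at week 6. Mixed 564Igi chimeras received WT marrow together with marrow of 564Igi mice, whose B cells carry knocked-in heavy and light chains of a receptor against ribonuclear self antigen, and the labels list no immunization for them. The labels place the analysis of all chimeras at week 10 after irradiation. The methods of the study also list a booster dose of NP-OVA for immunized chimeras, and whether these WT chimeras received it before analysis is not given in the sources used here. CD4+CXCR5+PD1+ cells were sorted as CD45.2+CD45.1- from the spleen of 5 mice per condition and captured separately for each mouse with 10x 5′ chemistry. The sources used here do not state which marrow gave the sorted cells. Marrow genotype, immunization with the time since it, and autoimmunity differ together between the conditions, so they cannot be told apart.

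Follicular helper T (TFH) cells help B cells in germinal centers, and follicular regulatory T (TFR) cells, which carry the transcription factor Foxp3, restrain that help. LncRNAs are transcripts without a known protein product, often spliced and polyadenylated, and many are found in only 1 cell type or cell state. Some act on neighbouring genes and others act elsewhere in the cell, and for most annotated lncRNAs neither has been shown.

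The expression table held 28192 cells, 14965 from WT and 13227 from 564Igi chimeras, with 1121 to 4030 cells and 3424280 to 15241983 raw UMIs per mouse. Median raw UMIs per cell were 3480 in WT and 3627 in 564Igi cells. Values are sctransform-corrected UMI counts, which the authors computed for each condition on its own, so a difference between conditions also holds any difference between those 2 corrections. Cd3e was detected in nearly every cell (99.4% in WT, 99.5% in 564Igi chimeras), Pdcd1, which encodes PD-1, in 73.5% and 77.7%, and Cxcr5 in 41.1% and 40.4%. Genes of B cells ranged from Ms4a1 (0.0431% in WT and 0.0677% in 564Igi chimeras) to Cd79b (3.98% and 3.05%) and Cd22 (4.05% and 4.69%). Xist was found in 82.7% to 89.4% of the cells of every mouse and the Y-linked Eif2s3y in at most 0.165%, although the labels list 3 WT and 2 564Igi chimeras as male. The labelled sex therefore did not describe the sequenced cells. Libraries shared 491 barcodes, carried by 988 cells, and these cells were kept.

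Gm42031 (ENSMUSG00000110386.1) lies on the minus strand of chromosome 8 at chr8:85125872-85132289 (GRCm38, GENCODE) and is annotated as a lincRNA with 2 exons, of 682 and 1203 bases. Gm30211 (ENSMUSG00000105646.1) lies on the plus strand at chr6:70719074-70740554 and has 4 exons with 3078 bases in all. Its gene spans the joining segments Igkj1 to Igkj5 and the constant exon Igkc of the immunoglobulin kappa light chain on the same strand, and none of these overlapped its exons. No row of the expression table was named for an Igk segment, and the methods of the study list the removal of receptor variable and constant genes. The absence of such rows therefore says nothing about transcription of the kappa locus. Gm34093 (ENSMUSG00000114981.1) lies on the minus strand at chr15:36375343-36390172, has 2 annotated transcripts, and overlaps the lncRNA Gm34150 on the opposite strand.

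The windows from 250 bases before to 50 bases after the RefSeq start (GRCm38.p6) of Gm42031 and Gm30211 are shown because they differ in how often they recur in the genome and in their core promoter letters. Gm34093 was not matched. Capitals mark TATAAA, and each window is written along the strand of its gene, Gm42031 at chr8:85131765-85132064 and Gm30211 at chr6:70728963-70729262.
Gm42031: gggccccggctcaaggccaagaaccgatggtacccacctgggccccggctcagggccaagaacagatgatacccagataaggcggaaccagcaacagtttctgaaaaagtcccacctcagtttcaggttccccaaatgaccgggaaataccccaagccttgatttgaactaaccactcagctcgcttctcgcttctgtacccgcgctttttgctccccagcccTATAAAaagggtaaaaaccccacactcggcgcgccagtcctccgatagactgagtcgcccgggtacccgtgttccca
Gm30211: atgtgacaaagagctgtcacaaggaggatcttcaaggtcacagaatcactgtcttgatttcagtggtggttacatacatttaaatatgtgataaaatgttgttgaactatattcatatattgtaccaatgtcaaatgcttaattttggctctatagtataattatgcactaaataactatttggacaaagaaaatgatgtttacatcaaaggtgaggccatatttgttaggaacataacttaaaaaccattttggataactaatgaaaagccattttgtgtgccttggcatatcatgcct

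The Gm42031 window lay wholly within GENCODE exon 1, was 56.7% GC and 75.7% soft-masked as repeat, and held TATAAA with its first base 27 bases before the RefSeq start. TATAAA was present on either strand in 13.6% of 32817 such windows. The window opened with a direct repeat of 36 bases, whose copies began at bases 1 and 40 and differed at 3 positions. The window had 49 other alignments in the genome over at least 80% of its length at 90% identity or more, on 12 chromosomes, the closest 99.3% identical. The spliced transcript had 61 alignments of at least 90 bases and 98% identity at 18 other loci, together covering 97.6% of its 1885 bases, the longest 862 bases. Reads of Gm42031 and of these copies may not be separable, and a count listed for Gm42031 is uncertain in that respect. Of 9 annotated genes that overlapped such a copy, 5 were tested (Coro2b, Grk5, Cep85, Cnbd2 and Chd9) and 0 were called between conditions with limma, where 0.01% of all 9959 tested genes were called. Their log2 differences lay between -0.00137 and 0.01.

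The Gm30211 window was 32.3% GC, held no TATAAA and overlapped no GENCODE exon, and the RefSeq start lies 10139 bases from the GENCODE start. Neither this window nor the Gm30211 transcript had a copy within the same limits. CTTTGA (T cell factor) occurred once, on the opposite strand 45 bases before the start, and is present on either strand in 16.0% of all windows. TGANTCA (AP-1), TTCNNNGAA (STAT), the interferon response element and TGTGGT (RUNX) were found on neither strand of either window. GGAAA (NFAT) occurred once and CAGNTG (E box) at 2 positions in the Gm42031 window, and they are in 61.3% and 51.4% of all windows.

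Gm42031 was found in most follicular T cells of 564Igi chimeras and in a minority of those of WT chimeras. In WT chimeras it was found, with at least 1 corrected count, in 23.5%, 37.1%, 44.3%, 35.0% and 39.7% of the cells of mice 11, 12, 14, 23 and 36. In 564Igi chimeras it was found in 87.3%, 79.8%, 87.8%, 96.3% and 97.5% of the cells of mice 13, 17, 21, 24 and 34. The lowest 564Igi mouse, mouse 17, was far above the highest WT mouse, mouse 14, so that the groups did not overlap. The means were 35.9% ± 7.79 in WT and 89.7% ± 7.28 in 564Igi chimeras (SD, n = 5 each). The exact binomial 95% interval was 21.9% to 25.1% for mouse 11 and 94.97% to 97.3% for mouse 24, the mouse with the fewest cells, and such intervals cover counting error only. With every cell thinned to 2500 corrected counts, which left out no cell, detection ran from 17.9% to 35.4% in WT and from 71.5% to 96.3% in 564Igi mice.

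The mean corrected count of Gm42031 per cell was 0.335, 0.643, 0.827, 0.585 and 0.763 in the WT mice, in the same order. It was 4.69, 3.77, 4.75, 6.99 and 11.4 in the 564Igi mice, of which mouse 34 was the highest. The means were 0.631 ± 0.191 and 6.33 ± 3.09 counts, a ratio of 10.0, and on the scale of mean log2(corrected count + 1) the conditions differed by 1.85. The difference lay in the level per cell as well as in the share of cells, because cells with Gm42031 held 1.73 counts on average in WT and 6.90 in 564Igi chimeras. Cells with 10 or more counts were rare in WT chimeras (0.0467% ± 0.0523) and formed 20.5% ± 15.7 of those of 564Igi chimeras, and the highest count in 1 cell was 90, in mouse 34.

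The detection of Gm42031 moved with sequencing depth in opposite directions in the 2 conditions. From the lowest to the highest of 3 equal bins of raw UMIs per cell it went up from 30.6% to 40.1% in WT and down from 94.3% to 84.9% in 564Igi chimeras. The correlation of its level with log raw UMIs over cells averaged 0.0467 ± 0.0425 in WT mice, above 0 in 5 of 5, and -0.134 ± 0.0948 in 564Igi mice, below 0 in 5 of 5. The part of the per-condition count correction in this was not tested.

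Gm30211 was found in fewer cells, and its 2 groups of mice overlapped. It was present in 8.05%, 15.7%, 20%, 13.2% and 10.8% of the cells of the WT mice and in 29.0%, 15.7%, 27.2%, 18.6% and 21.1% of the cells of the 564Igi mice, in the order above. The 564Igi mice 17 and 24 lay below the highest WT mouse, mouse 14. The means were 13.6% ± 4.57 and 22.3% ± 5.67, and mean corrected counts were 0.417 ± 0.118 and 0.759 ± 0.262, a ratio of 1.82. Cells in which it was found held 3.12 ± 0.238 counts in WT and 3.34 ± 0.364 in 564Igi chimeras, so the conditions differed less in the level per cell with Gm30211 than in the share of such cells. Thinned to 2500 counts, detection ran from 6.47% to 17.2% in WT and from 13.5% to 25.7% in 564Igi mice.

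Gm34093 was close to the limit of detection. It was found in 54 cells in all, with 1 count in 49 of them and 2 counts in the other 5. In WT mice 11, 12, 14, 23 and 36 it was found in 0.105%, 0.149%, 0.265%, 0.0854% and 0.0744% of cells, and in 564Igi mice 13, 17, 21, 24 and 34 in 0.331%, 0.494%, 0.0321%, 0.535% and 0.137%. Mice 21 and 34 lay within or below the WT range, so the groups overlapped. Over all cells of a condition these were 18 WT and 36 564Igi cells, sums to which the mice contributed unequally.

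**Figure D1:**
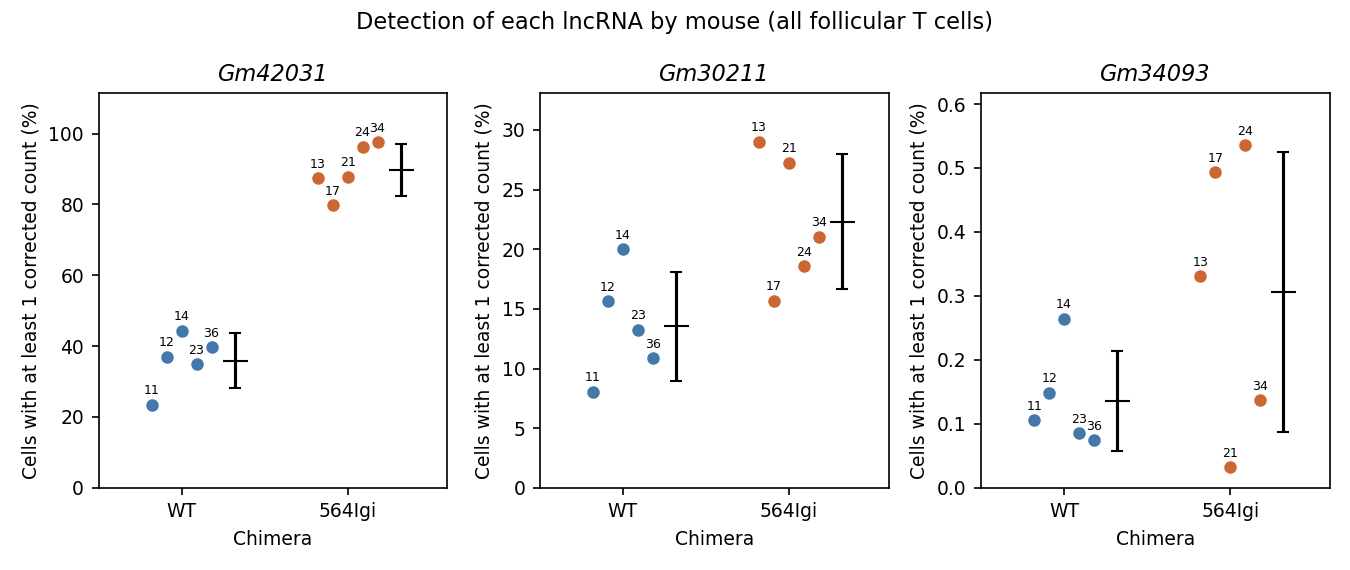
Percent of follicular T cells with at least 1 corrected count of each lncRNA (y axis) in WT and 564Igi chimeras (x axis), 1 numbered point per mouse, with mean and SD beside the points and a separate y scale for each lncRNA. Gm42031 separates the conditions (23.5% to 44.3% against 79.8% to 97.5%), while the mice overlap for Gm30211 and Gm34093.

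In the fit across genes, called meant a limma adjusted p (Benjamini-Hochberg) below 0.01 and an absolute log2 difference above 0.2 between conditions, among genes that reached 1% of cells in a number of mice equal to the smaller group. In all follicular T cells 1 of the 3 lncRNAs, Gm42031, was called, beside 0.01% of the 9959 genes tested. Gm30211 was not called, and Gm34093 did not pass the filter. Gm42031 was also called in activated TFH (0.0101% of genes called), TFR (0.02%), Sostdc1+ TFH (0.0202%), effector TFH (0.0104%) and interferon-stimulated (ISG) TFH cells (0.0106%), and in central memory TFH cells nothing was called (0%) with 784 of 10351 genes at an unadjusted p below 0.05. Gm42031 was not called in all cells by limma without a trend in the variance, nor in activated TFH or TFR cells without the filter on low genes. In central memory cells Gm34093 passed the filter through the 564Igi mice in which it was high. Because the lncRNAs were chosen on this contrast, nothing is read from these counts.

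The clusters were those the authors deposited. Gm42031 was present in all 6 and separated the conditions in each, among mice with at least 20 cells of the cluster. In 564Igi chimeras its mean log2 level was highest in Sostdc1+ TFH cells (2.68 ± 0.53), followed by TFR (2.34 ± 0.59), activated (2.32 ± 0.56), ISG (2.14 ± 0.73, n = 4), effector (1.81 ± 0.56) and central memory cells (1.05 ± 0.68, n = 3). In WT chimeras the order was TFR (0.58 ± 0.13), Sostdc1+ (0.55 ± 0.10), activated (0.40 ± 0.13), ISG (0.39 ± 0.21, n = 4), effector (0.30 ± 0.21) and central memory cells (0.22 ± 0.12). Within 564Igi mice Sostdc1+ cells were above TFR cells, the next in the order, in 5 of 5 mice (by 0.34 ± 0.11), while TFR and activated cells (0.02 ± 0.08) and activated and ISG cells (0.13 ± 0.16, n = 4) differed by less than the SD over mice. ISG cells were above effector cells in 4 of 4 mice (0.41 ± 0.29) and effector above central memory cells in 3 of 3 (0.54 ± 0.30). Within WT mice Sostdc1+ cells were above activated cells in 5 of 5 (0.16 ± 0.06), and no other pair of neighbours in the WT order differed by more than its SD. Central memory cells were lower than activated, TFR and Sostdc1+ cells in 8 of 8 mice each.

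Central memory TFH cells, which resemble recirculating T cells, held Gm42031 in 18.3% ± 9.02 (WT) and 57.1% ± 22.2 (564Igi), the lowest shares of any cluster. Effector cells, marked by Ccl5 and Gzmk, held it in 25.4% ± 16.1 and 81.2% ± 12. The share in TFR cells was 41.5% ± 7.70 in WT and 91.0% ± 6.40 in 564Igi chimeras, and in Sostdc1+ cells 42.6% ± 6.44 and 93.5% ± 4.39. The sorted cells held no cell type known to lack these lncRNAs, so detection from free RNA was not measured.

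On the scale of mean log2(corrected count + 1) the size of the difference between conditions varied over the clusters. It is given as each mouse's level in a cluster minus its level in activated TFH cells, and because the lncRNAs were chosen for their levels across clusters and conditions it carries no test. For Gm42031 this within-mouse difference was larger in 564Igi than in WT chimeras in Sostdc1+ cells (0.36 ± 0.13 against 0.16 ± 0.06, by 0.20) and smaller in effector cells (-0.51 ± 0.13 against -0.10 ± 0.16, by -0.41). In TFR cells it was 0.02 ± 0.08 in 564Igi and 0.19 ± 0.02 in WT chimeras, by -0.17. In central memory cells it was -1.08 ± 0.41 in 3 564Igi and -0.18 ± 0.10 in 5 WT mice, by -0.90, the largest of these differences for Gm42031. For Gm30211 it was larger in Sostdc1+ cells (0.18 ± 0.05 against 0.04 ± 0.07, by 0.14). In mean corrected counts in place of log2 values the Gm42031 difference in TFR cells was -0.393 counts, with overlap of the mice of the 2 conditions. On the log2(corrected count + 1) scale equal fold changes give smaller differences where counts are low. The log2 values therefore do not rank the clusters by fold change, which was not compared here for Gm42031.

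The clusters stood in the same order for Gm30211 in 564Igi chimeras, and in WT chimeras the order differed only in ISG and effector cells. In WT chimeras its mean log2 level was 0.33 ± 0.09 in TFR, 0.22 ± 0.04 in Sostdc1+, 0.18 ± 0.07 in activated, 0.17 ± 0.10 in effector, 0.13 ± 0.02 in ISG (n = 4) and 0.04 ± 0.03 in central memory cells. In 564Igi chimeras it was 0.55 ± 0.17 in Sostdc1+, 0.48 ± 0.11 in TFR, 0.37 ± 0.13 in activated, 0.27 ± 0.12 in ISG (n = 4), 0.24 ± 0.12 in effector and 0.06 ± 0.06 in central memory cells (n = 3). TFR cells were above activated TFH cells in 10 of 10 mice, by 0.13 ± 0.05, effector above central memory cells in 8 of 8 mice (0.17 ± 0.09), and Sostdc1+ above activated cells in 9 of 10 (0.11 ± 0.09). TFR cells were above Sostdc1+ cells in 5 of 5 WT mice (by 0.11 ± 0.08) and in 2 of 5 564Igi mice, where the difference was -0.07 ± 0.09. Activated and effector cells differed by less than the SD over mice in WT (0.00250 ± 0.0864) and 564Igi chimeras (0.13 ± 0.15), as did effector and ISG cells (0.06 ± 0.11 and -0.04 ± 0.22, n = 4 each).

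Sostdc1+ TFH cells were the 1 cluster in which the mice of the 2 conditions did not overlap for Gm30211. There it was found in 10.5%, 9.14%, 13.3%, 13.2% and 10.8% of WT cells of mice 11, 12, 14, 23 and 36, and in 31.3%, 18%, 34.6%, 24.4% and 23.5% of 564Igi cells of mice 13, 17, 21, 24 and 34. The ratio of mean counts was 2.77 there, 2.20 in activated and 1.46 in TFR cells. Gm30211 was called in Sostdc1+ cells only when 564Igi mouse 17 or mouse 34 was left out of the limma fit. In those fits 0.0202% and 0.0303% of genes were called. Gm30211 was chosen on this contrast, and the share of all genes without overlap was not counted. Nothing is therefore read from the lack of overlap or from these calls.

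**Figure D2:**
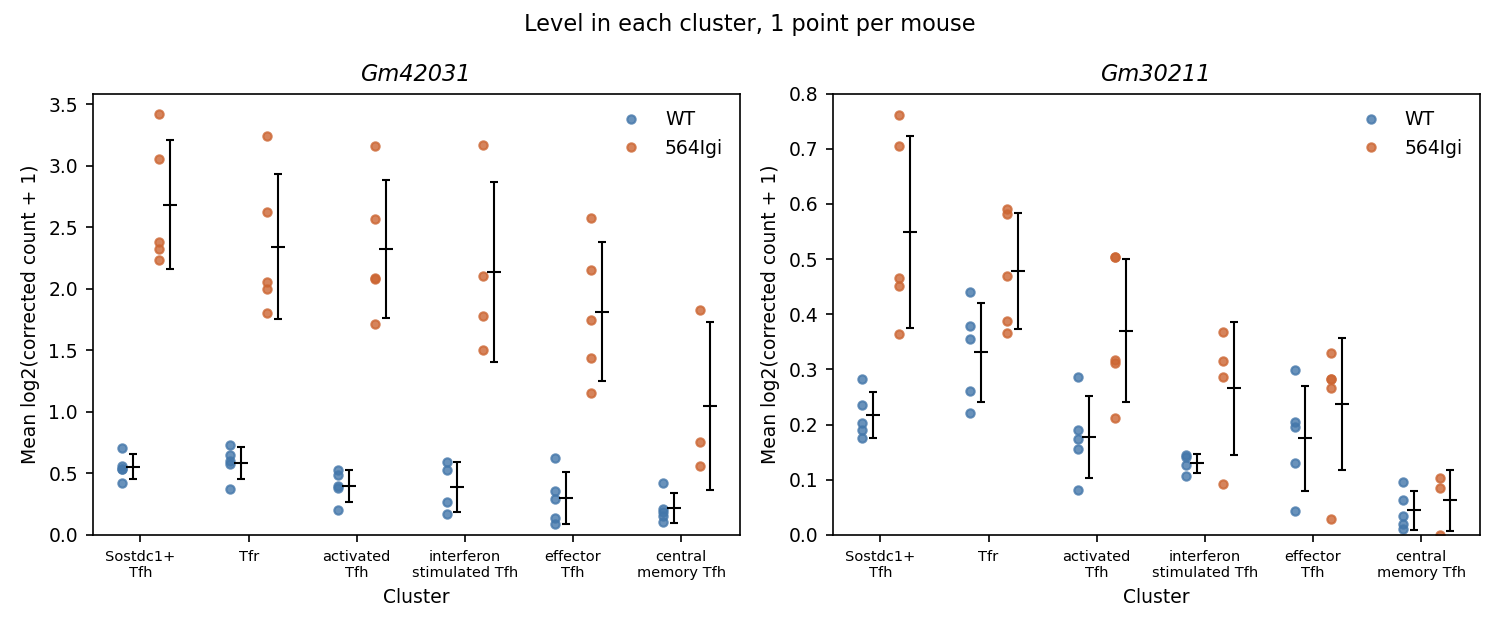
Mean log2(corrected count + 1) of Gm42031 and Gm30211 (y axis, separate scales) in the 6 deposited clusters (x axis), 1 point per mouse with at least 20 cells, with mean and SD in black. Gm42031 lies higher in 564Igi than in WT mice in every cluster, and both lncRNAs are lowest in central memory TFH cells.

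Gm34093 was found at its highest share in the central memory cluster, although most cells with it lay in other clusters. Of 54 such cells 20 were central memory TFH cells, a cluster of 725 cells. They were 4 of 560 WT and 16 of 165 564Igi central memory cells. By 564Igi mouse they were 4 of 21 cells in mouse 13, 8 of 83 in mouse 17 and 4 of 29 in mouse 24, and 0 of 19 in mouse 21 and 0 of 13 in mouse 34, which allow shares of cells with a count of up to 15.8% and 23.1% (3 counts of the total). Mouse 17 thus gave 8 of the 16 cells. Activated TFH cells with Gm34093 numbered 7 of 6148 in WT and 16 of 5805 in 564Igi chimeras, and TFR cells 6 of 6411 and 2 of 5239. Its level in central memory minus activated cells was 0.00733 ± 0.00849 in 5 WT mice and 0.16 ± 0.07 in the 3 564Igi mice with at least 20 central memory cells, with no overlap. That limit left out mice 21 and 34, in which no central memory cell held Gm34093, so the lack of overlap depends on it.

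Gm42031 and Gm30211 were found together in single cells more often than their separate shares within mouse and cluster give. In WT chimeras 1239 cells held both against 750 expected, a ratio of 1.67 ± 0.220 over mice, above 1 in 5 of 5. In 564Igi chimeras 2821 cells held both against 2707 expected, a ratio of 1.04 ± 0.0352, above 1 in 5 of 5. With Gm42031 in most 564Igi cells the ratio cannot rise far above 1 there, and the odds ratio, a measure added after seeing the data, was 3.60 ± 1.19 in WT and 2.51 ± 1.11 in 564Igi chimeras.

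The association was graded by count. Gm30211 was found in 8.07% ± 3.88 of WT cells with no Gm42031, 16.2% ± 4.60 with 1 count, 32.4% ± 6.10 with 2 to 4 counts and 57.0% ± 7.07 with 5 or more counts (n = 4 mice with enough such cells). In 564Igi chimeras the shares were 12% ± 7.30, 14.4% ± 8.67, 20.1% ± 6.24 and 27.8% ± 5.59. The highest bin has no upper end and holds higher counts in 564Igi than in WT cells, so its shares are not compared between conditions. Gm34093 shared too few cells for such a reading, with 4 WT and 25 564Igi cells also holding Gm42031 where 6.11 and 26.0 were expected, and 1 and 4 cells also holding Gm30211.

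**Figure D3:**
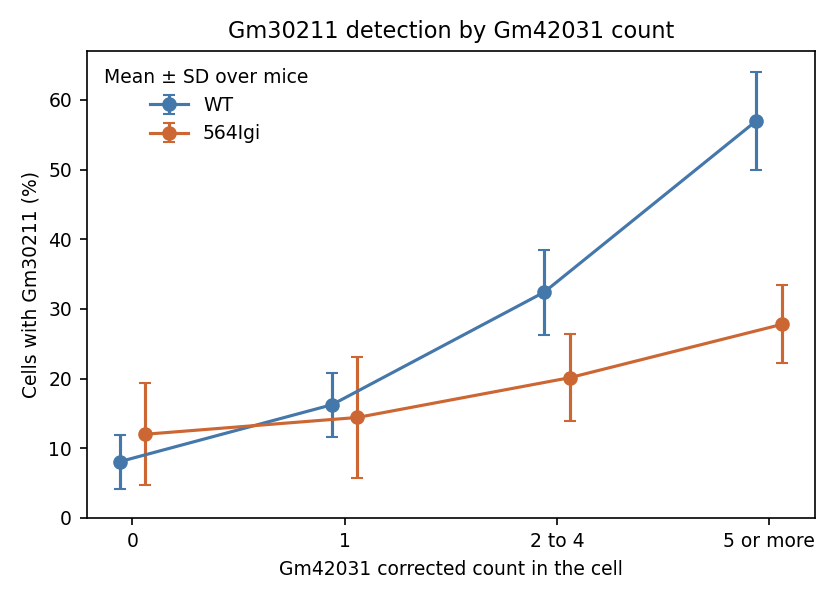
Percent of cells with Gm30211 (y axis) by the corrected count of Gm42031 in the same cell (x axis) in WT and 564Igi chimeras, as mean and SD over mice. The share climbs from 8.07% to 57.0% in WT and from 12% to 27.8% in 564Igi chimeras.

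Genes that varied with each lncRNA within mice were ranked by Pearson's r over cells of log2(corrected count + 1), after cluster means and log raw UMIs were removed within each mouse, and the mean over 10 mice is given. Cells of a mouse share a library, so these values are a description. For Gm42031 the highest gene was Gm30211 (mean r 0.203, range 0.0794 to 0.349 over mice), with a mean of 0.284 in WT and 0.123 in 564Igi mice, and in 564Igi mice alone it was not among the 10 highest. Then came Hif1a (0.192), the oxygen-regulated subunit of a transcription factor that drives glycolytic genes, Pdcd1 (0.190), Ppp1r14b (0.174), an inhibitor of protein phosphatase 1, and the glycolytic enzyme Tpi1 (0.167). Chd9 (0.161), a chromatin helicase, Itm2b (0.158) and Lamp1 (0.157), membrane proteins of the secretory and lysosomal route, Atp1b1 (0.156), a sodium pump subunit, and the glycolytic enzyme Aldoa (0.152) completed the 10.

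Among the lowest for Gm42031 were the ribosomal protein genes Rps23 (-0.151), Rpl32 (-0.150), Rps19 (-0.148) and Rps13 (-0.142). Chd9 is among the genes that hold a copy of Gm42031 sequence, of 211 bases at 98.6% identity on its transcribed strand. Chd9 was found in 43.8% of cells in both conditions, and the part of shared reads in its correlation was not tested. Ribosomal content had been regressed out by the authors before deposit, and the part of that step in the negative values was not tested.

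For Gm30211 the values were larger. Ppp1r14b led (mean r 0.327, range 0.1995 to 0.432), followed by Lamp1 (0.289), Pdcd1 (0.288), Atp1b1 (0.287), Hif1a (0.279), Itm2b (0.267), the zinc finger gene Cxxc5 (0.264), the lipid carrier Apoe (0.253), the surface ADP-ribosyltransferase Art2b (0.251) and the cell cycle phosphatase Cdc25b (0.243). Of these, Ppp1r14b, Lamp1, Pdcd1, Atp1b1, Hif1a and Itm2b also stood among the 10 highest for Gm42031. The lowest were S100a10 (-0.210), a partner of annexin A2, the cystatin Cst7 (-0.203), the surface glycoprotein Thy1 (-0.174), Rps13 (-0.170) and the actin-capping gene Capg (-0.169).

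**Figure D4:**
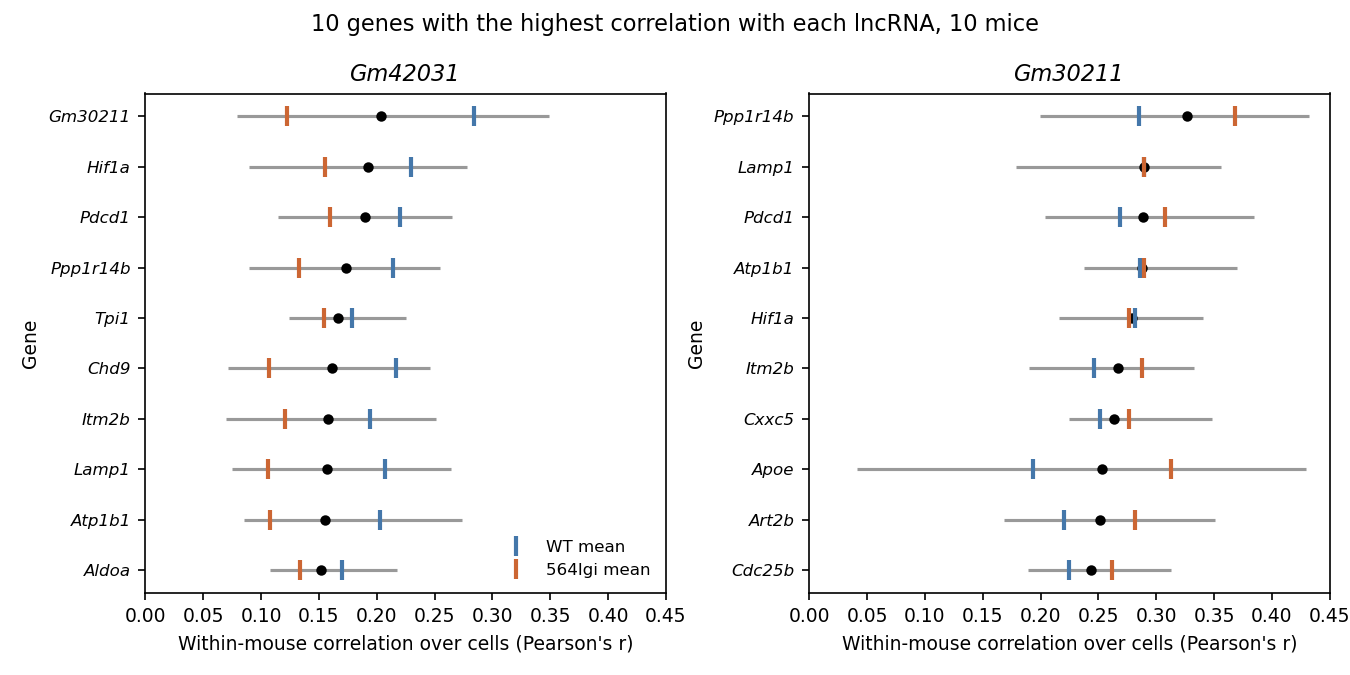
Within-mouse correlation (x axis, Pearson's r over cells) of the 10 highest genes (y axis) with Gm42031 and Gm30211, as mean (black point) and range over 10 mice (grey line), with the means of WT and 564Igi mice as coloured ticks. Hif1a, Pdcd1 and Ppp1r14b lie high for both lncRNAs.

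The 2 conditions ranked partly different genes highest for Gm42031. In 564Igi mice alone the endoplasmic reticulum chaperone Hspa5 came first (r 0.170 ± 0.0290 against 0.0240 ± 0.0210 in WT), with the protein disulfide isomerases Pdia3 (0.170 against 0.0687) and Pdia6 (0.162 against 0.0547) and the endoplasmic reticulum gene Sdf2l1 (0.154 against 0.0115). The mice of the 2 conditions did not overlap for these 4 genes, which were ranked by their 564Igi values and were therefore not tested. Pdcd1, Hif1a, Tpi1, Aldoa and Ppp1r14b remained among the 10 highest in 564Igi mice. For Gm30211 all 10 genes remained in 564Igi mice alone and 7 in WT mice alone.

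Gene programs differed in how they varied with the lncRNAs. All tested genes had a median r of 0.00444 with Gm42031 and 0.0044 with Gm30211, and of 9959 genes 6389 and 6181 had a mean r above 0, 613 and 980 of them in every mouse. Of 14 follicular helper genes 14 had a mean r above 0 with Gm42031 (median 0.0576) and 14 with Gm30211 (median 0.0931), and 7 and 11 of them were above 0 in every mouse. In 564Igi mice alone 13 of 14 were above 0 with each (medians 0.0411 and 0.0917), and in WT mice 14 of 14 (0.0816 and 0.0931). With Gm42031, Sh2d1a, which encodes the adaptor SAP, had 0.157 in WT and -0.0140 in 564Igi mice, and Cxcr5 0.187 and 0.0203. The helper lineage factor Bcl6 had 0.0622 and 0.107, Ascl2, a factor that induces Cxcr5, 0.123 and 0.198, Tox2 0.104 and 0.165, and the cytokine Il21 0.0429 and 0.00388.

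Of 15 glycolytic genes 14 were above 0 with Gm42031 (median 0.06) and 15 with Gm30211 (median 0.0911). Pkm had 0.126 and 0.144 and Gapdh 0.102 and 0.115, while the glucose transporter Slc2a3 had -0.0227 and 0.00757. Memory and homing genes ran the other way, with 1 and 3 of 10 above 0 (medians -0.0415 and -0.033). Klf2, which keeps T cells in circulation, had -0.111 and -0.107, and the survival receptor Il7r -0.0761 and -0.121. Tcf7 of the same list had 0.0274 and 0.056, above 0 with Gm30211 in 10 of 10 mice, and Lef1 had -0.00955 and 0.0233.

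Effector and cytotoxic genes had medians of -0.0204 and -0.039, with the chemokine receptor Cxcr3 at -0.0771 and -0.164. Of inhibitory receptors 5 of 7 were above 0 with Gm42031 (median 0.0527) and 3 of 7 with Gm30211 (median -0.00512), a difference of 2 genes that was not tested. The median with Gm30211 was 0.0357 in WT and -0.0459 in 564Igi mice. Lag3 had 0.0476 and -0.0638. Regulatory genes had medians of 0.00526 and -0.032, receptor signal genes -0.0153 and -0.0393, interferon-stimulated genes -0.00892 and -0.00819 and heat shock genes 0.00554 and -0.0304. The medians with Gm42031 changed sign between WT and 564Igi mice for regulatory (-0.0142 and 0.0214), receptor signal (-0.0277 and 0.00166) and heat shock genes (-0.00724 and 0.0102). These differences between conditions were not tested. For Gm34093 the highest gene was Sox4, a transcription factor gene that marks the central memory cluster, with a mean r of 0.102 ± 0.143, above 0 in 5 of 10 mice (0.0333 in WT, 0.171 in 564Igi mice). The highest gene with the same sign in every mouse was Rpl23 (0.0204), and with so few cells these values were not read further.

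Genes of other cell types, low in the sorted cells, were not equal in cells with and without a lncRNA. The B cell list, 7 of whose 10 genes were in the table, summed to 0.479 per 10000 counts in cells with Gm30211 and 0.262 in cells without, higher in 10 of 10 mice. Its most abundant gene was Cd22 (4.05% in WT, 4.69% in 564Igi chimeras), followed by Cd79b (3.98% and 3.05%), while Cd79a reached 0.224% and 0.282%. Between conditions the list overlapped, at 0.241 to 0.367 per 10000 in WT and 0.227 to 0.376 in 564Igi mice. The plasma cell list, of which Xbp1, also expressed by T cells, was the most abundant gene (28.2% and 33.6% of cells) and Jchain and Mzb1 were found in at most 0.253% on average, summed to 1.19 per 10000 in cells with Gm42031 and 0.987 in cells without, higher in 10 of 10 mice. Myeloid genes, of which Lyz2 was the most abundant in WT cells (0.303%), summed to 0.00954 ± 0.00955 per 10000 in cells with Gm30211 and 0.258 ± 0.388 in cells without, higher with Gm30211 in 0 of 10 mice. Cells with Gm42031 minus cells without gave 0.0325 ± 0.107 for the B cell list (higher in 7 of 10 mice). The myeloid list gave -0.0527 ± 0.396 for Gm42031 (higher in 7 of 10). The plasma cell list gave 0.115 ± 0.105 for Gm30211 (higher in 8 of 10). The part of B, plasma or myeloid cell RNA in the levels of the lncRNAs was not tested.

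T cell receptors gave a readout that had no part in the choice of these genes. Of the 28192 cells 21405 (75.9%) had a paired receptor, and cells of 1 mouse with the same CDR3α and CDR3β were taken as a clonotype. Gm42031 and Gm30211 had a higher mean log2 level in expanded clonotypes of 3 or more cells (12870 cells) than in singletons (6537 cells). For the level, clusters were held equal within each mouse, while shares of cells were not adjusted for cluster. Gm42031 was found in 40.3% ± 9.10 of expanded and 31.4% ± 8.73 of singleton WT cells, whereas the 564Igi shares were 91.2% ± 5.63 and 86.0% ± 10.8. Its mean log2 level was higher by 0.16 ± 0.13 (SD, n = 10 mice), in 9 of 10 mice, the exception being 564Igi mouse 34 (-0.06), with an adjusted p of 0.00879 by a two-sided exact sign-flip permutation test.

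Gm30211 was found in 15% ± 5.00 of expanded and 11.5% ± 3.81 of singleton WT cells, whereas the 564Igi shares were 23.9% ± 4.83 and 19.9% ± 7.60. In 564Igi mouse 21 the share ran the other way (27.0% of expanded and 28.2% of singleton cells). The level of Gm30211, with clusters held equal, was higher by 0.08 ± 0.05 in 10 of 10 mice (adjusted p = 0.00586 over 3 lncRNAs, exact sign-flip permutation test). Gm34093 was lower in expanded cells by 0.00156 in 8 of 10 mice (adjusted p = 0.0469, exact sign-flip permutation test), a difference that rests on 12 expanded and 25 singleton cells. It did not pass in 8 of the 10 tests that left out 1 mouse (adjusted p = 0.0508 to 0.0938), without the largest clonotype of each mouse (adjusted p = 0.0566) or with clonotypes of 10 or more cells (adjusted p = 0.184), all by the same permutation test.

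Sister cells resembled each other in Gm30211. For each cell with a lncRNA, the share of its sisters (same mouse, clonotype and cluster) that also had it was set against the share among all other cells of that mouse and cluster. With Gm30211, sisters had it in 17.7%, 28.2%, 41.2%, 49.1% and 25.8% of pairs in WT mice 11, 12, 14, 23 and 36, and in 53.1%, 35.3%, 54.2%, 47.2% and 55.9% in 564Igi mice 13, 17, 21, 24 and 34. Other cells had it in 12.2% ± 4.33 (WT) and 21.8% ± 5.66 (564Igi), and the sisters lay above them in 10 of 10 mice, by 23.8 ± 9.98 percentage points (adjusted p = 0.00586, two-sided exact sign-flip permutation test). Large clonotypes give most pairs, and without the largest clonotype of each mouse, an alternative chosen after seeing the data, the excess was 21.8 points. With each clonotype weighted equally it was 4.39 ± 4.79 points, above 0 in 8 of 10 mice. A small clonotype then enters through any 1 cell with the lncRNA and its remaining cells hold it less often by construction, so the value without any likeness of sisters lies below 0 and the equal weighting carries no test.

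For Gm42031 sisters had it in 45.3% ± 9.36 of pairs and other cells in 36.4% ± 7.74 in WT chimeras, and in 92.6% ± 4.41 and 89.7% ± 6.84 in 564Igi chimeras, where little room was left above the other cells. The excess was 5.90 ± 5.97 points, above 0 in 9 of 10 mice (adjusted p = 0.00586, exact sign-flip permutation test), with WT mouse 23 (20.9 points) far above the other WT mice (4.84 to 6.78). With each clonotype weighted equally the excess of Gm42031 was -6.08 ± 3.83 points, opposite in sign and above 0 in 1 of 10 mice, to which the same limit applies. In level, the correlation between sisters for Gm42031 was 0.0886 ± 0.0483 in WT and 0.417 ± 0.0999 in 564Igi chimeras, with no overlap of mice, and for Gm30211 0.267 ± 0.0938 and 0.298 ± 0.0935, with overlap. This measure was added after seeing the data, and its difference between conditions was not tested. Counts of Gm42031 were lower in WT cells, where counting noise weighs more on such a correlation. The size of the correlation is therefore not compared between conditions. Gm34093 gave 27 WT and 150 564Igi pairs and no excess that passed (p = 1, exact sign-flip permutation test, 7 mice).

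**Figure D5:**
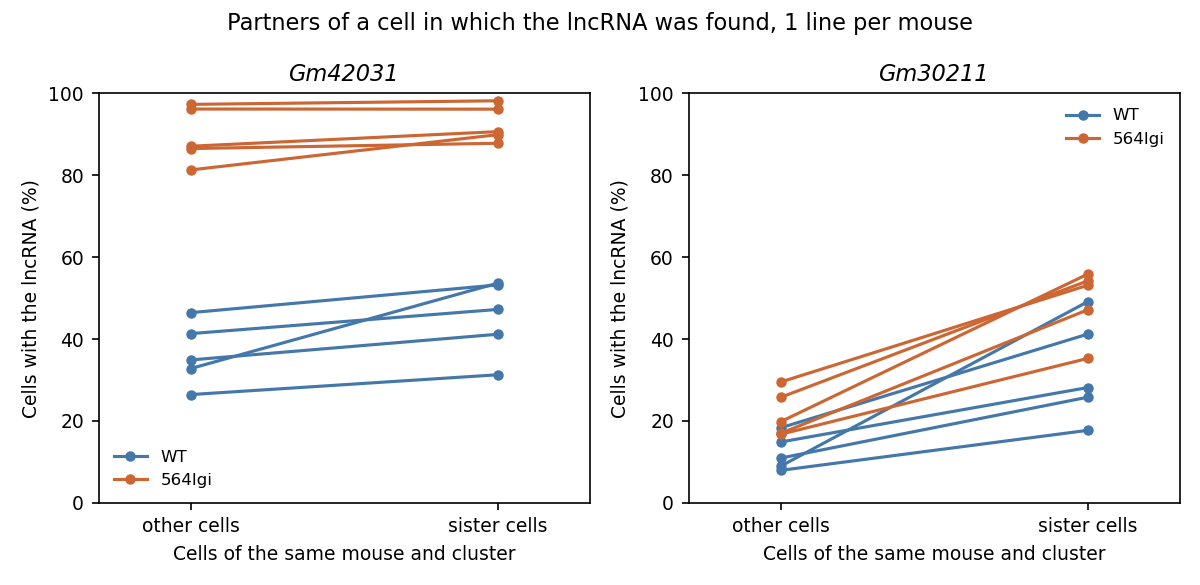
Percent of cells with Gm42031 or Gm30211 (y axis) among other cells of the same mouse and cluster and among sisters of a cell that has the lncRNA (x axis), 1 line per mouse. For Gm30211 all 10 lines rise, from means of 12.2% and 21.8% in WT and 564Igi mice to 32.4% and 49.1%.

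Of all 9959 tested genes 0.01% were called between conditions with limma and 318 had an unadjusted p below 0.05. Within 100 kb of Gm42031 the annotation lists 17 genes, of which 7 were tested, and 0 were called or had an unadjusted p below 0.05 with limma. These were Trir, the importin Tnpo2, Fbxw9, Dhps, an enzyme of hypusine synthesis, Wdr83, Wdr83os and Man2b1, a lysosomal mannosidase, and the largest log2 difference was 0.05 ± 0.04 (SE) for Trir (limma adjusted p = 0.9997). Of 13 genes near Gm30211 only Rpia, a pentose phosphate enzyme, was tested (log2 difference 0.02), and the others were immunoglobulin kappa segments without values. Of 7 near Gm34093 Rnf19a, Gm34150 and Ankrd46 were tested, with log2 differences of 0.02, -0.00155 and 0.00720. None of these 4 was called or had an unadjusted p below 0.05 with limma.

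Other genes were grouped as named lncRNAs, names of Gm with a number and names ending in Rik, the last 2 by name alone. Their largest absolute log2 difference between conditions in all follicular T cells was 0.0819. Non-coding RNAs outside these groups were not covered. Of 15 named lncRNAs tested, among them Malat1, Neat1 and Xist, 0 were called and 0 had an unadjusted limma p below 0.05. Of 216 other genes named Gm with a number 19 had an unadjusted limma p below 0.05, 2 of them higher in 564Igi chimeras, and of 227 genes with names ending in Rik 8 had one, 3 of them higher. None of these was called, and among all tested genes 147 of the 318 with such a p were higher. The 5 with the smallest p were all lower in 564Igi chimeras. D830030K20Rik was detected in 2.70% of cells in WT and 0.967% in 564Igi chimeras (log2 difference -0.02, limma adjusted p = 0.0469), and X1810006J02Rik in 6.94% and 2.80% (-0.04, limma adjusted p = 0.116). Gm11707 (8.10% and 5.52%), Gm30177 (1.77% and 1.19%) and Gm35037 (3.24% and 2.27%) did not pass.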

How the data were processed

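Each library of 1 mouse was aligned by the authors to GRCm38 with Cell Ranger 4.0.0, and cells were filtered, integrated and clustered by them in Seurat 3.1.4. The deposited expression values are natural log values of sctransform-corrected UMI counts plus 1, made by the authors for WT and 564Igi cells separately with mitochondrial and ribosomal content, the number of UMIs and a heat shock score regressed out, and after undoing the log 100% of values above 0 were whole within 1e-06. Raw UMI counts per cell, the mitochondrial percent and the heat shock score were deposited for each cell. The mouse was the replicate. Means of log2(corrected count + 1) per mouse were fitted with limma 3.58.1 (trend) in R 4.3.3 over genes found in at least 1% of cells, and called at an adjusted p below 0.01 with an absolute log2 difference above 0.2. A mouse entered a cluster with at least 20 cells. Within-mouse differences between clonotype classes and between sisters and other cells were tested with exact sign-flip tests (scipy 1.17.1) and Benjamini-Hochberg adjustment. Labels do not say whether libraries came from separate chimera cohorts, and no batch or date is given.

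The 3 lncRNAs, gene lists and tests were chosen with earlier results of these data known. Named genes were the lncRNAs, tested genes within 100 kb of them, the 10 highest and 5 lowest within-mouse correlations of the same sign in all 10 mice, called non-coding genes or else the 5 with the smallest p, and genes of the program and marker lists. Genes ranked in 564Igi mice alone and members picked from a list as examples were named after their values were seen. A gene that the rule names is not reported here. Clonotypes were cells of a mouse with the same CDR3α and CDR3β. Positions are from GENCODE vM21 and windows from RefSeq, in which 2 of 3 lncRNAs were matched, and copies were found with BLAST 2.17.0. No doublet caller was run and free RNA was not removed. A planned permutation test of cluster differences between conditions is not reported, since the lncRNAs were chosen on those levels. Statistics were tested on simulated data.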

Additional observations from a re-analysis of the deposited data

Results flagged for a closer look

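Gm30211 had 3 mice that stood apart from the rest of their group, among 56 combinations of group, cluster and measure looked at, where chance gives about 1 in 20. Each of these values rests on few cells with Gm30211. In central memory TFH cells WT mouse 14 held it in 9.52% of cells (4 of 42) and the next WT mouse in 3.23%. In effector cells 564Igi mouse 34 had a mean log2 level of 0.0286 (1 of 35 cells with it) and the next lowest 564Igi mouse 0.27. In ISG cells 564Igi mouse 13 held it in 7.14% (2 of 28) and the next lowest in 16.3%.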

How the results depend on the processing

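Of 329 alternative values 280 kept their direction and side of the threshold or stayed within the limits set for them, 3 reversed, 10 no longer passed, 0 newly passed in the same direction and 36 moved, and causes were not tested beyond fewer mice or cells. Genes called in all cells were 0 by limma without trend, with Gm42031 not called, 2 with counts per 10000 and 2 with the 3 largest clusters weighted equally. Without a filter on low genes 0 were called in activated and 0 in TFR cells, with Gm42031 not called in either, and 1 in Sostdc1+ cells, and with at least 50 cells per mouse 3 in effector cells. Leaving out 1 mouse gave 1 to 2 calls in all cells, 1 to 3 in activated, TFR, Sostdc1+ and ISG cells, 0 to 9 in central memory and 1 to 4 in effector cells. Against TFR in place of activated cells the Gm42031 difference between conditions was 0.0615 in ISG cells (reversed), 0.37 in Sostdc1+ cells and -0.25 in effector cells, where the mice then overlapped. Gm34093 differed by -0.00123 for clonotypes of 10 or more cells, by -0.00149 without the largest clonotype, and by -0.00199 to -0.00112 without 1 mouse, and no longer passed in the first 2 or in 8 of the 10 tests without 1 mouse. Its sister excess of 0.0653 points ranged from -0.259 (without 564Igi mouse 17, reversed, below 0 in the 6 mice left, adjusted p = 0.0312 by an exact permutation test, the smallest that 6 mice allow) to 0.159. With clonotypes weighted equally the sister excess was -6.08 points for Gm42031 and 4.39 for Gm30211, and the odds ratios of co-detection were 3.60 and 2.51. Of the 10 highest genes for Gm42031 5 remained in 564Igi mice alone, and of the 2 for Gm34093 1 remained with raw UMIs kept and 0 in WT or 564Igi mice alone. Leaving out cells with more than 1 alpha or beta sequence was not run, since 0 cells had one. No paired analysis of WT against 564Igi chimeras was possible because the 2 conditions share no mouse numbers. Depth limits Gm34093, seen in 54 cells.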
